A study of Drosophila melanogaster with 2 samples.

Results

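The core Notch pathway genes are 9 genes listed by symbol: the receptor N, the ligands Dl and Ser, the ligand-activating ubiquitin ligase gene neur, the glycosyltransferase gene fng, the protease gene kuz, and the nuclear factors Su(H), mam and H. Dl is spelled Delta in the Ensembl annotation used here, and the other 8 were found under their listed symbols. A peak was tied to a gene when that gene had the nearest start site of any protein-coding gene or when the summit lay within the gene body. By this rule 26 of the 6496 peaks that passed the irreproducible discovery rate (IDR) threshold, a filter on the agreement of replicates, belonged to 7 of the 9 genes, out of 13945 protein-coding genes in all. The peaks come from chromatin immunoprecipitation and sequencing (ChIP-seq) with an antibody against GFP, in whole Drosophila melanogaster embryos aged 6 to 18 hours, both sexes pooled, of a transgenic line that stably expresses the bHLH transcription factor Oli with GFP at its C terminus. There is 1 group of 2 biological replicates of that line and no second condition, so every value below is a description of sites in these libraries. Whole embryos mix many cell types, and the peaks do not say in which of them Oli-GFP was bound.

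In the Notch pathway, a ligand on one cell (Dl or Ser) binds the receptor N on its neighbour. Fng can modify the sugars of N, and Neur promotes endocytosis of the ligand in the sending cell. Kuz, an ADAM metalloprotease, then cuts the outer part of N, gamma-secretase releases its intracellular domain, and this domain joins the DNA-binding protein Su(H) and the coactivator Mam in the nucleus, where H otherwise links Su(H) to corepressors. In the fly embryo the pathway is known for lateral inhibition, by which single neuroblasts are singled out, and for later choices between daughter cells. bHLH proteins such as Oli bind E-boxes, sequences of the form CANNTG, as a class.

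The reference sequence (RefSeq, release 6 of the genome, the dm6 assembly) from 50 bp before to 50 bp after 9 of these summits is shown because it displays what most of the 26 sites share, a stretch rich in A and T, and how unevenly E-boxes occur among them. The highest site of each gene shown comes first. The next highest sites of neur and kuz and the lowest of the 3 of fng were added after their values were seen. That fng site was the only member site with 2 E-boxes. The fng site in intron 4, with a higher signal and 1 E-box, is not printed. No site of mam, which has 12 of the 26, is printed. All are read 5′ to 3′ on the plus strand with the summit at the middle base, and capitals mark E-boxes.
N, intron 5, chrX:3162496-3162596: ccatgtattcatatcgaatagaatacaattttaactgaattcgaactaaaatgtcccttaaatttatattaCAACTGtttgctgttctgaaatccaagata
Dl, 178 bp upstream of the start, chr3R:19326345-19326445: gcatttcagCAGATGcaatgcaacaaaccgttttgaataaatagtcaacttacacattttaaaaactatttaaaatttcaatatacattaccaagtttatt
Ser, 10883 bp upstream of the start, chr3R:27205100-27205200: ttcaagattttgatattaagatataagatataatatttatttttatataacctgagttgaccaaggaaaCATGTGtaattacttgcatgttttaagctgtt
neur, intron 1, chr3R:9031937-9032037: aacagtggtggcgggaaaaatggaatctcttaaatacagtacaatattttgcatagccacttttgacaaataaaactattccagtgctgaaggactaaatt
neur, 233 bp upstream of the inner start, chr3R:9033914-9034014: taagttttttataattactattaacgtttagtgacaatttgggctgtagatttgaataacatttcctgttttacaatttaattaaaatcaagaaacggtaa
fng, 767 bp upstream of the start, chr3L:20950229-20950329: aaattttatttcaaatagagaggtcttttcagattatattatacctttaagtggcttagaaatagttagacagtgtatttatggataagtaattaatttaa
fng, 1522 bp upstream of the start, chr3L:20950984-20951084: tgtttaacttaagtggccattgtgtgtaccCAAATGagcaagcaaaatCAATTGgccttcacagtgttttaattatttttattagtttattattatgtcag
kuz, intron 3, 21023 bp from the start, chr2L:13571112-13571212: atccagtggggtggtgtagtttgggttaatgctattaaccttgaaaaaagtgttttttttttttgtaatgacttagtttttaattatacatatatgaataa
kuz, intron 3, 22117 bp from the start, chr2L:13572206-13572306: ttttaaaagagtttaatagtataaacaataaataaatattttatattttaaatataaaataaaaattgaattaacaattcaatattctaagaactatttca

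Most of the peaks lay in genes with long territories. The territory of a gene is the stretch of genome whose summits the rule assigns to it, and it ran from 9.01 kb for H and 9.50 kb for Su(H) to 70.0 kb for mam and 89.7 kb for kuz, with a median of 37.4 kb over the 9 genes and 5.25 kb over all coding genes. At least 1 IDR peak was tied to 7 of the 9 genes, and to 27.5% of all coding genes. Of the 6 members among the 1394 coding genes with the longest territories (N, Dl, Ser, kuz, mam and fng) all 6 had an IDR peak, where 62.3% of those 1394 genes had one. Among the 3 shorter members only neur had any, and the background for shorter genes was 23.6%. The background that suits 6 of the members is therefore 62.3% and not 27.5%, and no excess of members with a peak can be read from so few genes.

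**Figure D1:**
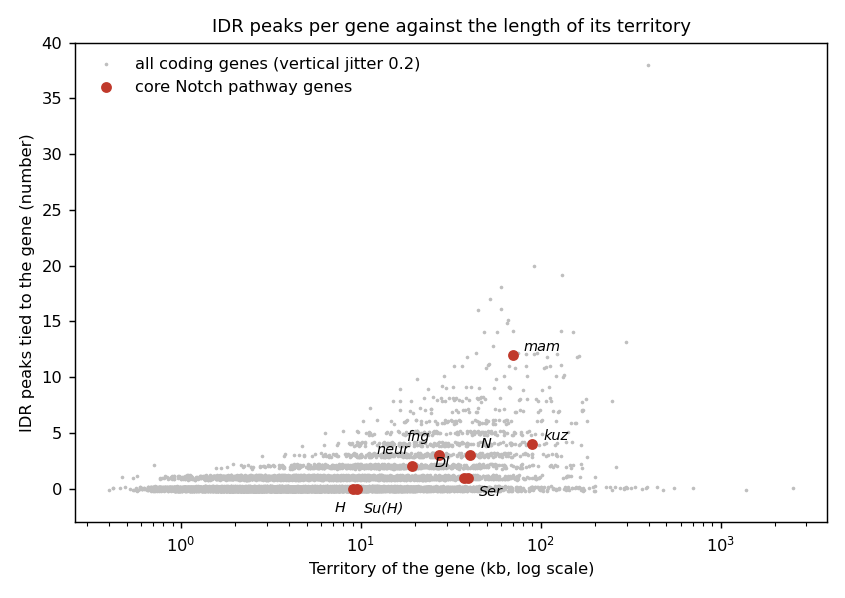
Number of IDR peaks tied to each gene (vertical axis) against the length of its territory in kb (log scale); grey points are the 13945 coding genes, with vertical jitter, and red points the 9 core Notch pathway genes. The point for mam, with 12 peaks in 70.0 kb, stands high for its length, and H and Su(H) lie at 0 with territories of 9.01 and 9.50 kb.

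Counted against length, the members held 7.60 IDR peaks per 100 kb of their summed 342 kb (exact Poisson 95% interval 4.97 to 11.1, counting error only), while the 6 chromosomes searched held 4.85 per 100 kb. The gene mam alone supplied 12 of the 26 peaks (46.2%), and without it the other members held 5.15 per 100 kb, close to the genome-wide figure. In order, the IDR peaks per 100 kb were 17.1 for mam, 11 for fng, 10.4 for neur, 7.41 for N, 4.46 for kuz, 2.67 for Dl, 2.54 for Ser and 0 for H and Su(H). Below mam these figures rest on 1 to 4 peaks a gene, so neighbours in the order cannot be told apart. Of the 1394 genes with the longest territories, 4.59% had more IDR peaks per 100 kb than mam, 20.9% more than N and 48.4% more than Dl.

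Gene by gene the replicates gave like numbers. Among the 6496 strongest peaks of each replicate by signal, mam had 13 in replicate 1 and 11 in replicate 2 (mean 12.0 ± 1.41, SD, n = 2), N had 3 and 2, and kuz, fng, neur and Ser had equal numbers in the replicates (3, 3, 2 and 1). Dl, H and Su(H) had 0 in either. In each replicate 6 of the 9 genes had such a peak, beside 26.8% of all coding genes in replicate 1 and 28.1% in replicate 2. Dl is the gene that the IDR list adds, with a single peak close to the threshold.

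**Figure D2:**
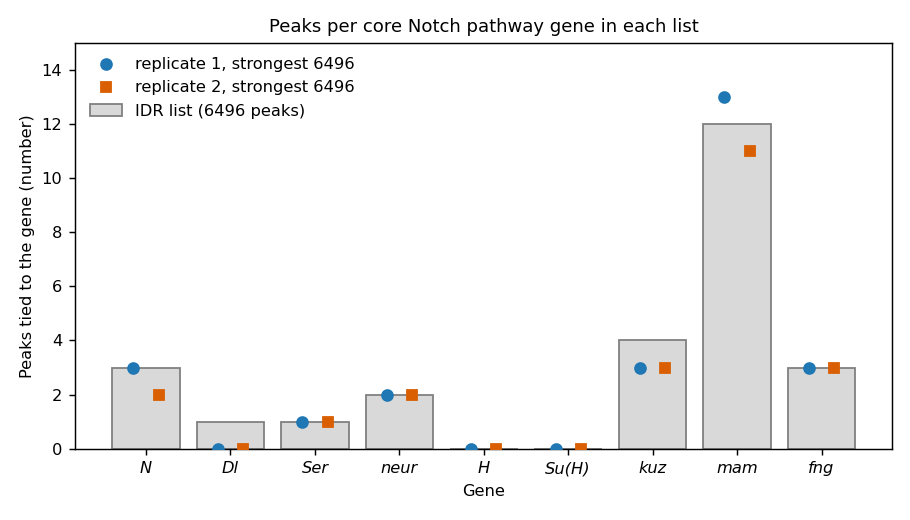
Number of peaks tied to each gene: grey bars give the IDR list, blue circles and orange squares the 6496 strongest peaks of replicates 1 and 2. The counts of mam, 13 and 11, stand well above those of every other member, and both replicates are at 0 for Dl, H and Su(H).

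The receptor gene N (FBgn0004647, dm6 X, 3134870 to 3172221, plus strand) carried the second highest peak of the set, deep inside the gene. This peak (3162367 to 3162697) lay in intron 5 of a transcript with 9 exons, 27676 bp downstream of the start site, with a pooled signal of 1571.8 and rank 240. Its partners stood at rank 263 in replicate 1, with a signal of 796.3, and at rank 211 in replicate 2, with a signal of 755.8. Signals are peak heights as the authors' caller gave them, each on the scale of its own list, so ranks carry the comparison between lists. The nearest coding start, 10594 bp away, belonged to CG18508, so it is the gene body that ties the site to N. A weaker peak (3157297 to 3157712) fell in intron 4, with a pooled signal of 168.4 (rank 5969) and replicate ranks of 5049 and 9228. The remaining N peak (3134293 to 3134708) stood 369 bp upstream of the N start site, with a signal of 297.6 (rank 3216) and ranks of 3394 and 3130. Its summit also falls in the 3' UTR of kirre, the neighbouring gene, whose product acts in myoblast fusion, so the site cannot be assigned to N alone.

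The ligand genes had few sites. Dl (FBgn0000463, 3R, 19302731 to 19326217, minus strand) had 1 IDR peak (19326187 to 19326602), 178 bp upstream of its start site. Its pooled signal of 156.2 and rank of 6425 put it just above the lowest IDR signal, 154.8, and its replicate ranks were 8239 and 7498. Ser (FBgn0004197, 3R, 27172090 to 27194267, minus strand) also had 1, between genes and 10883 bp upstream of its first start site (27204942 to 27205357). There the pooled signal was 216.9 (rank 4584), and the ranks were 3751 in replicate 1 and 6128 in replicate 2. No IDR summit fell within the body of either ligand gene.

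Of the genes that act on ligand and receptor, neur (FBgn0002932, 3R, 9020348 to 9039471, minus strand) had 2 of the 5 highest peaks among the members, both in its first intron of 15309 bp and both near its inner start site, which lies 5740 bp downstream of the first. The higher (9031903 to 9032155) stood 1744 bp downstream of that inner start, with a pooled signal of 929.8 (rank 622), and ranked 717 in replicate 1 and 524 in replicate 2. The lower (9033756 to 9034171) stood 233 bp upstream of it, with a signal of 697.9 (rank 994) and ranks of 971 and 1092. The 2 summits were 1977 bp apart. neur had 10.4 IDR peaks per 100 kb in a territory of 19.3 kb, the shortest among the members with any peak.

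The gene fng (FBgn0011591, 3L, 20925891 to 20949512, minus strand) had a pair of sites upstream and 1 more inside. The upstream peaks (20950177 to 20950314 and 20950826 to 20951241) had summits 755 bp apart, 767 and 1522 bp before the fng start. The nearer had a signal of 572.8 (rank 1356; ranks 1400 and 1350 in the replicates), and the farther had 210.8 (rank 4725; 4087 and 5748). Both flank the start of a long non-coding RNA gene, lncRNA:CR45243, at 504 and 251 bp, so the pair may equally be counted to that gene. The inner peak (20930350 to 20930765) lay in intron 4, 18954 bp into the gene, with a signal of 381.2 (rank 2366) and ranks of 2305 and 2729, and its nearest coding start was that of CG10589, 2732 bp away.

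The protease gene kuz (FBgn0259984, 2L, 13550139 to 13639411, plus strand) is the longest member at 89273 bp, and its 4 IDR peaks were all weak and all intronic, in 2 pairs. The first pair fell in intron 3, which is 50958 bp long, at 21023 and 22117 bp from the start site (13570954 to 13571369 and 13572048 to 13572463), with pooled signals of 261.5 and 206.1. Replicate ranks were 2938 and 5367 for the first of these and 5011 and 4936 for the second. The other pair fell in intron 5, 63765 and 65272 bp from the start (13613696 to 13614111 and 13615203 to 13615618), with signals of 172.5 and 156.4. Their ranks were 5670 and 6965 for the first, and 6518 and 6072 for the second. For both the nearest coding start was that of CG9254, 16718 and 18225 bp away, so the gene body alone ties them to kuz. Summits within a pair were 1094 and 1507 bp apart, whereas 41648 bp separated the pairs, and the kuz start site itself had no IDR peak.

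Among the nuclear factors the counts differed widely, but so did the territories, at 70.0 kb for mam, 9.01 kb for H and 9.5 kb for Su(H). The coactivator gene mam (FBgn0002643, 2R, 13991203 to 14060356, plus strand) had 12 IDR peaks, and only 16 of the 13945 coding genes had more. All 12 summits lay within the gene: 5 in intron 2 (18058 bp), 5 in intron 3 (27528 bp), 1 in intron 4 and 1 in the first exon, in the 5' UTR. The gene has 3 start sites, of which the inner pair lie 17996 and 40460 bp from the first. The highest peak of all members (14024949 to 14025326) lay in intron 3, 6487 bp upstream of the last of these starts, with a pooled signal of 1594.6 (rank 229) and ranks of 241 and 213. A second summit stood 662 bp from it (14024445 to 14024658, signal 705.8, rank 972), with ranks of 1054 and 831. For this pair and for 1 more peak in the same intron the nearest coding start was that of CG18371.

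The next 3 peaks of mam had signals of 498.3, 434.4 and 423.5. The first of them (14008669 to 14009084, rank 1661) stood 322 bp upstream of the second start site, with ranks of 1872 and 1620, and the others (13998283 to 13998698 and 13993626 to 13994041) lay 7288 and 2631 bp downstream of the first start, with ranks of 1903 and 2202, and of 1648 and 2989. The remaining 7 had signals between 167.1 and 359.6 and pooled ranks from 2576 to 6019. One of these, at the first start site (13991165 to 13991580, signal 254.6), had its replicate 1 summit 294 bp away from the IDR summit and ranks of 6075 and 2969, the largest shift among the members. Neighbouring summits in mam were 662 to 13171 bp apart. The top peaks of mam and N cannot be ordered, since mam was ahead in replicate 1 (241 and 263) and N in replicate 2 (211 and 213).

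Su(H) and H, the DNA-binding factor and its corepressor adaptor, had no peak in any of the 4 lists, the 30000-peak lists included. Both have short territories, and only 23.6% of coding genes with shorter territories had an IDR peak. In the pooled list 55.6% of coding genes of any territory length had a peak, and the share for shorter territories is not given here. For Su(H) (FBgn0004837, 2L, 15039488 to 15043334, plus strand) the closest pooled summit lay 9843 bp beyond the gene, at 15053177, with a signal of 173.2 (rank 5788), and was tied to ck. For H (FBgn0001169, 3R, 20621938 to 20628915, plus strand) the closest pooled summit lay 5856 bp beyond the gene, at 20634771, with a signal of 71.6, and stood 39 bp from the start of Pi3K92E. The closest IDR summit to H was 27266 bp away. Since reads were not analysed here, no limit of detection can be set for these genes.

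**Figure D3:**
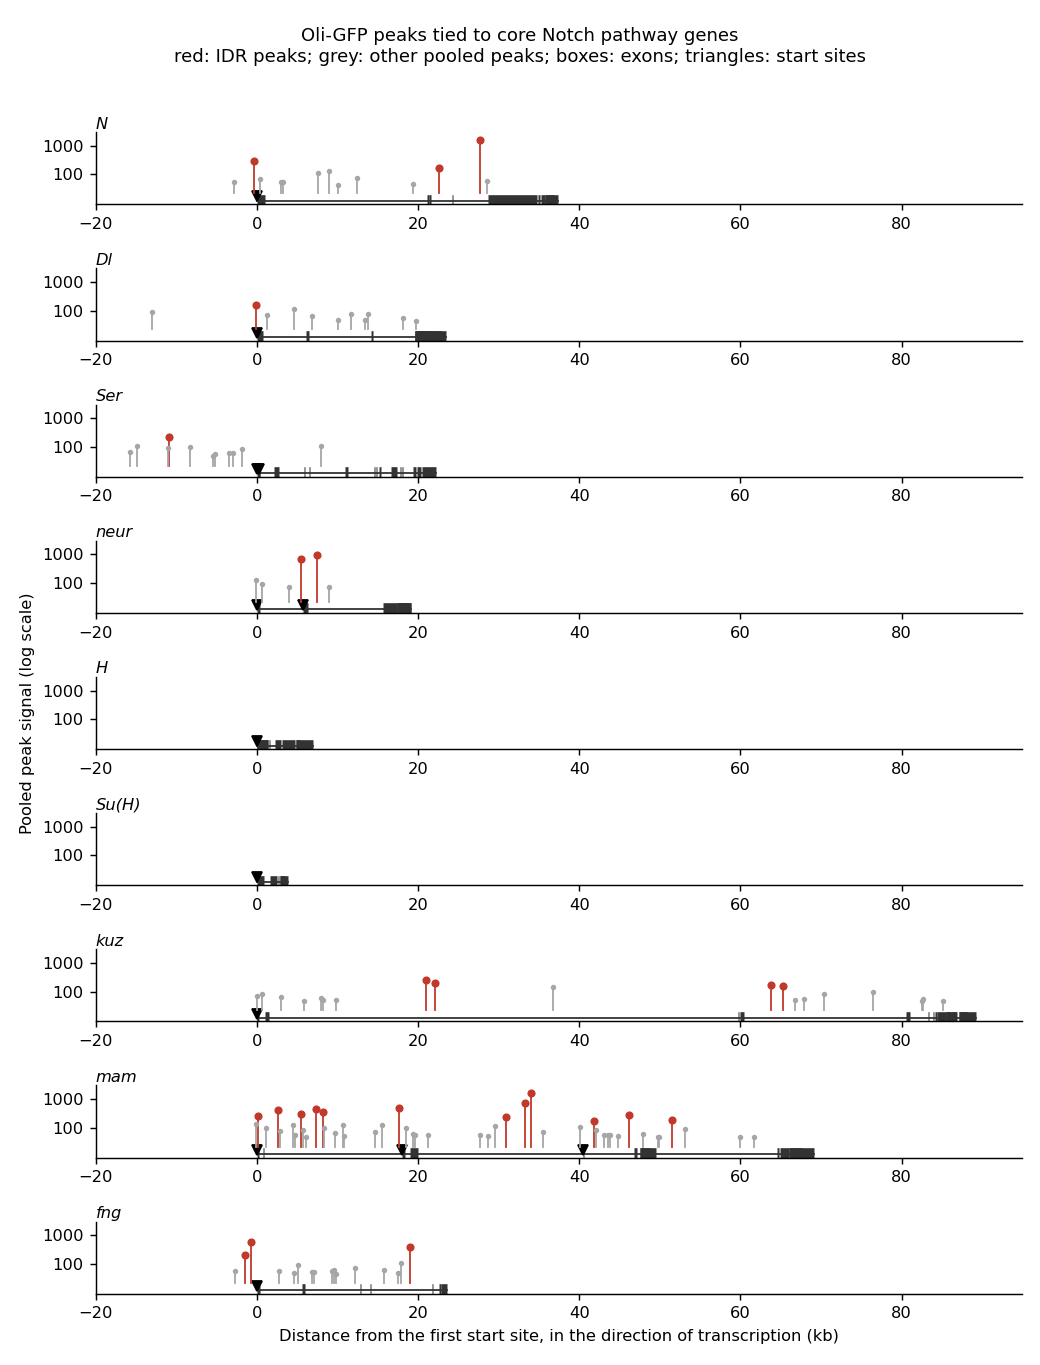
Pooled peaks tied to each of the 9 genes, plotted by distance from the first start site in kb in the direction of transcription, with peak signal on a log scale; red stems are IDR peaks, grey stems other pooled peaks, dark boxes exons and triangles start sites. IDR peaks gather in the first part of mam and around 34 kb into it, stand far inside N and kuz and upstream of Ser, and are missing at H and Su(H).

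By position, introns held most of the sites. Of the 26 summits 18 (69.2%, exact binomial 95% interval 48.2 to 85.7, counting error over peaks only) were intronic and farther than 500 bp from any annotated start, against 43.2% of the 6470 IDR peaks of other genes. Within 500 bp of a start site lay 6 (23.1%, 8.97 to 43.6), against 35.9%. The remaining 2 were intergenic (7.69%), against 18.5%. No summit fell in a coding exon, where only 0.185% of other IDR peaks did. The nearest coding start was over 5 kb away for 13 of the 26 (interval 29.9% to 70.1%), against 27.7%. These shares lean on mam: of the 14 peaks of the other members 8 were intronic and 4 were at a start site. The rule that ties peaks to genes bears on these shares, since it takes in any summit within a gene body. Of the 18 intronic summits 8 lay nearer to the start of another coding gene and were tied to a member by its body alone. Counting only peaks with a member's start as the nearest left 18 peaks, of which 33.3% were at a start site, close to the 35.9% of other peaks, and counting only summits in a gene body left 21, of which 14.3% were. Introns of these genes are also long, and the part of length in the intronic share was not tested.

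All 26 peaks overlapped a peak in both replicates, as did 99.5% of other IDR peaks, which follows from how an IDR list is made. With partners counted only among the 6496 strongest peaks of each replicate, 20 of 26 had them in both (76.9%, 56.4 to 91.0), against 82.3% of other IDR peaks. The 6 without were the intron 4 peak of N, the Dl peak, 2 peaks of kuz and 2 of mam, all with pooled ranks of 5497 or lower in the list. Across the 26 peaks the replicate signals had a Spearman's rho of 0.830 and a Pearson's r of 0.893 on the log2 scale, given as a description, since the peaks share libraries and a control. Ranks were better in replicate 1 for 13 peaks and in replicate 2 for 13. The median distance between a replicate summit and its IDR summit was 21 bp.

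**Figure D4:**
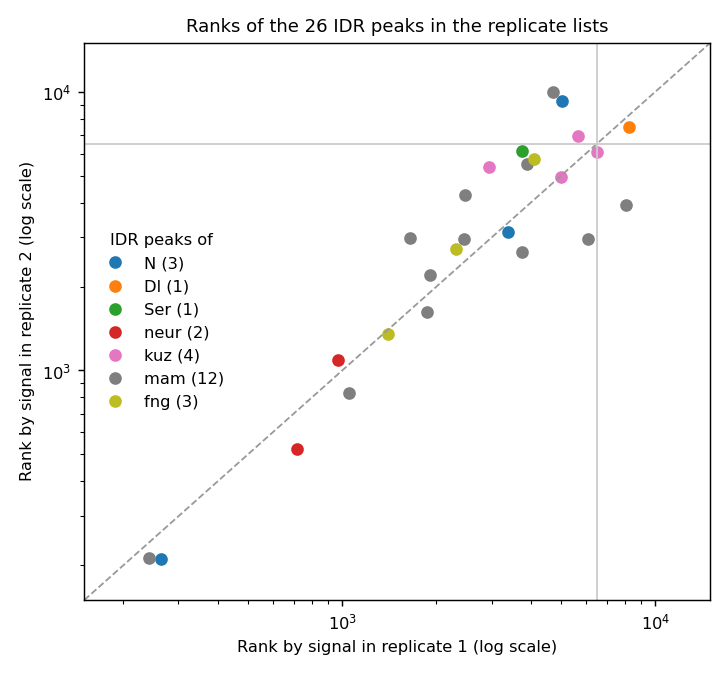
Rank by signal of the 26 IDR peaks in replicate 2 (vertical) against replicate 1 (horizontal), both on log scales and coloured by gene; grey lines mark rank 6496 and the dashed line equal ranks. The top peaks of mam and N sit together at ranks 211 to 263, and 6 points lie beyond rank 6496 in at least 1 replicate, among them the Dl peak at 8239 and 7498.

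In height the members' peaks were ordinary for the list. Their median pooled signal was 291.8 and their median rank 3296, against a signal of 295.2 and a rank of 3248.5 over other IDR peaks. Among the first 1000 ranks were 5 of the 26 (19.2%), namely the top peaks of mam and N, the second of mam and both of neur, against 15.4% of other peaks.

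What most of the sites shared, with each other and with most other IDR peaks, was a low GC content at the summit. The GC content within 50 bp of the summit averaged 25.7% ± 6.70 (SD over 26 peaks), against 41.5% ± 7.45 in a window of the same width centred 500 bp to the right, a difference of -15.8 percentage points (SD 12.0). In 24 of the 26 the summit window had the lower value, and in 5370 of the 6470 other IDR peaks. Other IDR peaks had 30.9% ± 8.20 at the summit, against 43.5% ± 9.68 to the right. The exceptions were the weak intron 4 peak of N (35.6% at the summit, 27.7% to the right) and the lowest mam peak (37.6% and 34.7%). With the window to the left in its place the mean difference was -15.2 points and the summit was lower in 22 of 26. Among the other IDR peaks it was lower in 5406 of 6470. The N peak was then lower at its summit (35.6% and 41.6% to the left), and the exceptions were 4 peaks of mam, 1 of them with equal values. The longest run without G or C had a median of 12.5 bp at summits and 8 bp in the flank, against 11 and 7 bp for other IDR peaks. It reached 41 bp in the second intron 3 peak of kuz, whose window, printed above, has a GC content of 10.9%, and 37 bp in the lower intron 5 peak of kuz.

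**Figure D5:**
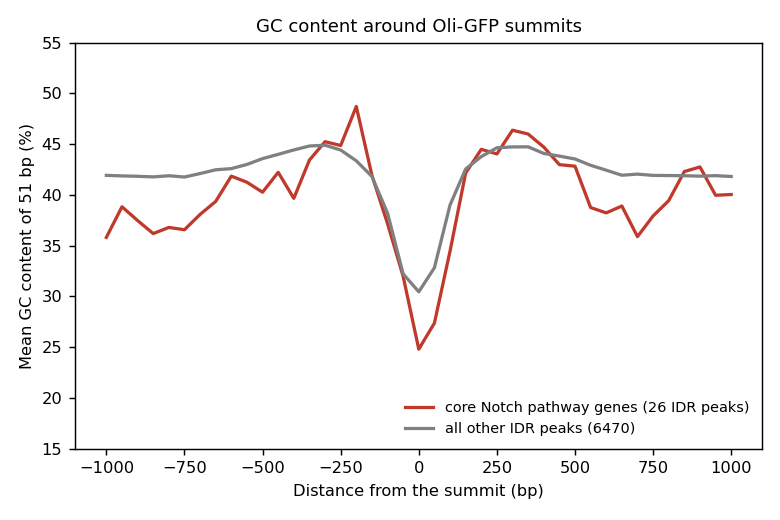
Mean GC content of 51 bp windows (vertical, in %) by distance from the summit in bp, for the 26 IDR peaks of core Notch pathway genes (red) and the 6470 other IDR peaks (grey). Both curves dip at the summit, to 24.8% in red and 30.5% in grey; the red curve is less smooth because it averages 26 sites.

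E-boxes were found at some genes and not at others. Within 50 bp of the summit 9 of the 26 sites had 1 or more (34.6%, 17.2 to 55.7), against 32.3% of other IDR peaks. In the window centred 500 bp to the right, 4 of 26 had one (15.4%, 4.36 to 34.9), against 41.9%. Motif shares for the left side are not given here, and the members' value rests on 4 sites. Among other IDR peaks the E-box share was lower at the summit than in this flank. All 3 sites of N, the sites of Dl and Ser, 2 of the 3 of fng and 2 of the 12 of mam had an E-box, and none of the 4 of kuz or the 2 of neur did. Of the 10 matches 4 were CAATTG, the most frequent form, and 2 were CAAATG. N had CAACTG at its high intron 5 site, Dl had CAGATG 41 bp left of its summit, and Ser had CATGTG 19 bp right of its summit. Only CAATTG at the farther upstream site of fng spanned the summit base, from 2 bp before to 3 bp after it, and with windows of 25 bp either side 3 sites (11.5%) kept an E-box. CATATG, the form known for mammalian Olig proteins, and CAGCTG were at 0 of 26 summits each, which allows shares up to 13.2% (exact), where 4.02% and 2.29% of other IDR peaks had them.

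The core of the Su(H) site, searched as GTGGGAA or GTGAGAA on either strand, occurred at 1 of the 26 summits (3.85%, 0.0973 to 19.6) and at 1.64% of other IDR peaks. That match was GTGGGAA at the edge of the window of a mam intron 2 peak (summit 13996681), 50 to 44 bp to the left of the summit. The 5-mer CAGTG or its complement stood at 6 of 26 summits (23.1%, 8.97 to 43.6), against 16.0% of other peaks, and ATATTA at 7 (26.9%, 11.6 to 47.8), against 24.2%. Each of these shares has an interval that takes in the share among other peaks. A match in the letters is a description and does not show a bound site.

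Below the IDR threshold the same genes held many weaker peaks. The pooled list had 121 peaks tied to 7 members: 45 to mam, 19 to kuz, 16 to fng, 13 to N, 11 each to Dl and Ser and 6 to neur. Per 100 kb this was 35.4, against 22.4 over the genome, with 64.2 for mam and 58.7 for fng at the top. Outside the IDR list the deposited -log10 q-values of these peaks ran from 2.21 down to 0.112, against 2.71 or more for the IDR peaks of members. These counts and densities thus include many calls with weak statistical support. The 95 outside the IDR list had signals up to 141.5, and 52 of them (54.7%) overlapped a peak in both replicates, against 62.0% of the other pooled peaks outside the list. Some of these calls overlap an IDR peak of the same gene and match the same replicate peaks, as mam rank 11042 does beside rank 2576. The pooled counts and this share therefore count some sites more than once. The mean GC content of the 95 was 41.8% at the summit and 41.4% in the flank, so these averages show no dip. Ser stood apart in position, with 10 of its 11 pooled peaks between genes, upstream of its start, while 8 of the 11 of Dl and 37 of the 45 of mam were intronic.

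Other genes of the pathway, a list of 30 chosen with earlier results of these data known, had IDR peaks in part. At least 1 was tied to 12 of the 30, beside 27.5% of all coding genes, and 3 of the 30 were among the 1394 genes with the longest territories. By role, 1 of 4 gamma-secretase genes had a peak, 2 of 4 genes of receptor glycosylation and cleavage, 2 of 3 of ligand endocytosis, 3 of 7 of receptor trafficking, 3 of 5 nuclear cofactor genes, 0 of 3 Bearded family genes and 1 of 4 others. The 6 genes with the highest signals had their top peak at a start site. The other genes of this list with an IDR peak had theirs in an intron or between genes. Among the members the top peak was at a start site for Dl, intronic for N, neur, kuz and mam, and intergenic for Ser and fng. The fng peak lay 504 bp from a non-coding start, just outside the 500 bp limit. The median territory was 9.11 kb for the 30 genes and 37.4 kb for the members. Short territories leave less room away from a start, and the part of length in this difference was not tested. The top site of lgd (l(2)gd1 in Ensembl), which acts in endosomal sorting of N, stood 126 bp upstream of its start (signal 2018.3, rank 125; ranks 146 and 113 in the replicates) and also within 500 bp of the start of Reps. The highest of 3 peaks at numb, whose product inhibits Notch signalling after asymmetric division, stood 145 bp upstream (1499.3, rank 258; 227 and 356). At gro, which encodes the Groucho corepressor, the higher of 2 stood 132 bp upstream (1465.3, rank 267; 288 and 254).

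Lower signals were found upstream of aph-1, a subunit gene of gamma-secretase (696.1, shared within 500 bp with Snx21), of bib, a neurogenic gene that encodes an aquaporin family protein (683.6), and of rumi, which encodes an O-glucosyltransferase of N (588.3, shared with CG7029 and Usp12-46). Fur1, which has a territory of 126 kb, had the most peaks in the list, 7. The 18 genes without an IDR peak were Psn, nct, pen-2, O-fut1, Fur2, lqf, dx, Su(dx), spdo, Kul, kto, Bx42, Brd, Tom, Ocho, amx, pcx and Nle.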

How the data were processed

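Oli-GFP ChIP-seq of 2 biological replicates was used as the authors deposited it: 4 peak lists on dm6, 1 per replicate and 1 pooled (30000 peaks each), and the IDR list (6496). Per the accompanying file notes, the replicate lists derive from alignments and 1 shared control, and the IDR list from the other 3. The deposited signal is the height of each peak; its scaling is not stated. The deposited -log10 q-values were not used for ranking. Summits come from the deposited summit offset (other). Caller and aligner: not given in the sources used here. Depth is unknown.

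The gene models are those of BDGP6 annotation 54 in Ensembl release 115, and bases were read from the RefSeq release 6 genome. Peaks on 6 chromosomes were tied to genes as stated, ties included, with overlap of at least 1 bp between lists. Shares have exact (Clopper-Pearson) 95% intervals. No test was run: there is 1 group, and p-values over peaks would not measure a spread between embryos. Replicates measure only the spread between these 2 samples. Tie rule, territory and motif search were tested on simulated data. Python 3.11.15, numpy 2.4.6, pandas 2.3.3, scipy 1.17.1 and matplotlib 3.10.9 were used.

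The members, the list of other pathway genes and the motifs were chosen with earlier results of these data known. All 9 members are named; of mam the 5 highest peaks are given in full, and of the other pathway genes the 6 with the highest signal, Fur1 being named after its values were seen.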

Additional observations from a re-analysis of the deposited data

How the results depend on the processing

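Values for these genes moved both with the number of peaks kept and with the windows used. With the stronger 3248 IDR peaks, 4 members had 13 peaks (3.8 per 100 kb, GC difference -17.0 points), and with the strongest 12992 pooled peaks 7 members had 53 (15.5 per 100 kb, -8.48 points, 21 of the 30 other pathway genes). Peaks per 100 kb of the genome change in proportion to the length of the list, so the shift in density is not particular to the members. The shares of all coding genes at these list lengths are not given here, so the gene counts have no background. Leaving out a replicate gave 22 to 25 peaks of 6 members, 6.43 to 7.31 per 100 kb, 22.7% to 24.0% at start sites, E-boxes at 31.8% to 32.0% of summits, Su(H) cores at 0% in either case, GC differences of -15.0 to -13.4 points and 13 other pathway genes. Tying by nearest start alone left 18 peaks (33.3% at start sites), and by gene body alone 21 peaks (14.3%) of 5 members, without Dl and Ser. With start sites within 200 bp the share was 7.69%. The share of other IDR peaks within 200 bp is not given here, and their 35.9% is for 500 bp. Among the strongest replicate peaks only, 76.9% of peaks had partners in both. Windows of 25 bp gave E-boxes at 11.5%, Su(H) cores at 0% and -18 points, and windows of 100 bp -12.2 points; the cause was not tested. Of the 55 values recomputed, 38 kept within their limits. For counts the limit was a ratio of 1.5 to the main value, and for shares and the density the 95% interval. For the GC difference it was the SD between the replicates. These limits differ in kind and are wide for the shares, so the tally does not measure stability. Only the GC difference could change sign, and it stayed negative in every setting. Counts per member under the same settings were added after seeing the data; the single Dl peak was lost in each replicate alone. No paired analysis was possible because there is 1 group. Depth is unknown, and with 26 peaks the intervals are wide.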
